A study of Mus musculus with 54 samples.

Results

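Freshly profiled kidney cells from C57BL/6J and Balb/c mice were compared, using the 6 libraries of the series that hold male kidneys digested on ice and loaded without storage on the same version of the droplet chemistry, version 2. They are 6 of the 54 samples of the series and were chosen by strain, workflow and chemistry as the labels give them, without use of any measured value. The C57BL/6J group is 3 kidney suspensions of 19-week-old untreated males of 1 litter from a line that the study names AFAPIL.1DEL on C57BL/6J. What that line carries is not given in the sources used here. The Balb/c group is 3 suspensions of 18-week-old untreated males, also of 1 litter. Both groups were digested with a cold-active bacterial protease, and no mouse of either group received a treatment. Strain, litter, the extra week of age, the line and the experiment in which the libraries were made move together, so their contributions cannot be told apart. The word strain below stands for that whole difference. The study made these libraries for other comparisons, of dissociation, storage and nuclei workflows.

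The kidney filters plasma at the glomerulus, where podocytes wrap the capillaries, and reclaims most of the filtrate in the proximal tubule, a segment rich in transporters, mitochondria and detoxifying enzymes. The ascending loop of Henle, the distal convoluted and connecting tubules and the collecting duct, built of principal and intercalated cells, then adjust salt, water and acid. C57BL/6J is the strain on which the mouse reference genome is based. Inbred strains such as Balb/c differ from it at many positions, in gene copies and retrotransposed pseudogenes, and in immune loci such as the MHC, called H2 in the mouse.

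The 6 libraries held 21004 cells, from 2356 to 5411 in C57BL/6J and from 2467 to 3577 in Balb/c. Depth differed between the strains. Over the 12963 genes listed in all 6 libraries, totals ran from 3921821 to 5551899 UMIs (unique molecular identifiers, one per captured transcript) in C57BL/6J and from 1362075 to 2571602 in Balb/c. The median cell held 779 to 1036 UMIs in C57BL/6J and 343 to 688 in Balb/c, and Balb/c replicate 3 stood apart with 22 cells of 1000 UMIs or more and with all listed T and NK cell markers at 0. Cells of at least 300 UMIs were thinned to 300, which left out 192 to 381 cells of a C57BL/6J library and 262, 189 and 1159 of the Balb/c libraries, the last of 3577. The medians were 227 to 229 genes per cell in C57BL/6J and 230 to 233 in Balb/c. That difference of -4.00 genes has an exact two-sided permutation p of 0.1, the smallest that 3 against 3 libraries allow. Per the study's methods, genes seen in fewer than 10 cells were not kept, so a 0 here can stand for a gene seen in few cells and is not absence. Only 25 to 83 genes per library held UMIs in 1 to 8 cells. Zeros covered 605 to 1263 of the shared genes in a C57BL/6J library and 1896 to 3119 in a Balb/c library. Where a whole group was at 0, folds were taken against 9 UMIs per library. They are lower bounds if a filtered gene held 1 UMI per cell, since the filter counts cells. The words at least and lower bound carry that condition below. All 9 proximal tubule markers were present in every library, at 5159 to 6913 CPM in sum, where CPM is the usual scaling of a gene's UMIs to the UMI total of its library.

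In the sums over all cells, 505 of 11225 tested genes were higher in C57BL/6J (4.5% of those tested) and 208 were higher in Balb/c (1.85%). A call needed an adjusted p under 0.05 in edgeR's quasi-likelihood test and a log2 fold change of at least 1 in size. Fold changes are C57BL/6J over Balb/c throughout, so a positive value is higher in C57BL/6J, and errors on them are SE. For 4192 genes, 37.3% of those tested, the values of the 3 libraries of one strain lay wholly outside those of the other. Zeros were unequal among the calls: 277 of the 505 had a Balb/c library at 0, against 7 of the 208 with a C57BL/6J library at 0. Among the 9489 shared genes above 0 in every library, 240 were higher in C57BL/6J and 236 in Balb/c, a choice of genes that itself leaves out those low in Balb/c. With all libraries thinned to the total of the smallest, 299 and 234 were called. The C57BL/6J count also fell to 221 to 240 when any 1 C57BL/6J library was left out, and rose to 1130 without Balb/c replicate 2.

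**Figure D1:**
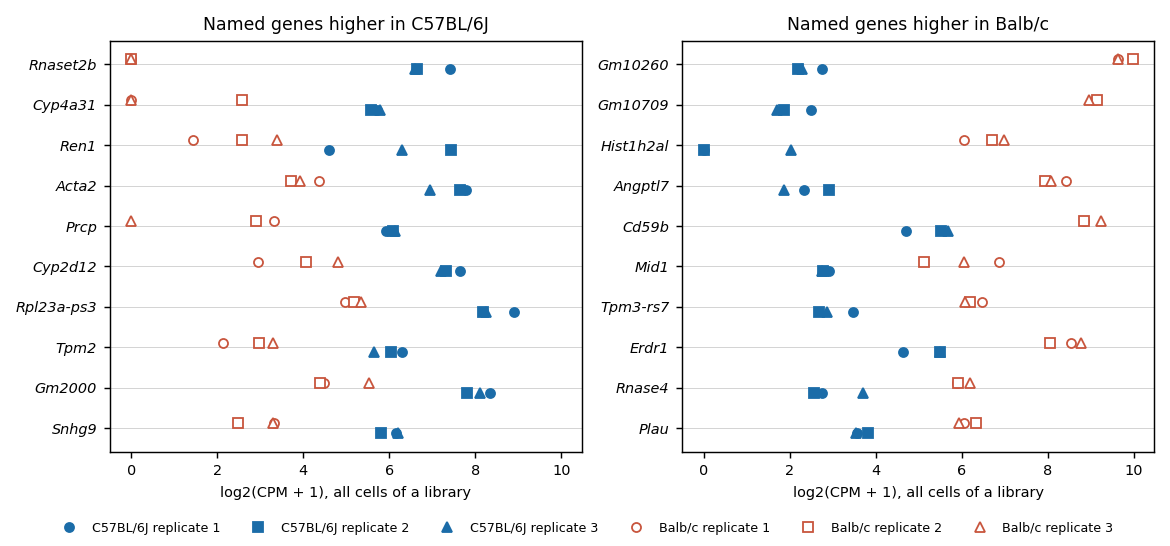
The 10 named genes per strain with the highest fold change among genes at 50 CPM or more, plotted as log2(CPM + 1) over all cells of each library, 1 point per library (filled blue, C57BL/6J; open red, Balb/c). In each of the 20 rows the 3 points of one strain lie clear of the 3 of the other, and Rnaset2b is at 0 in all 3 Balb/c libraries.

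The 2 differences with the smallest p concerned copies of ribosomal protein genes that were abundant in the Balb/c libraries and close to the floor in the C57BL/6J libraries. Gm10260 (chr13:97760072-97760632, minus strand, GRCm38), an intronless copy of Rps18, stood at 5.72, 3.58 and 3.90 CPM in C57BL/6J and at 796, 1013 and 797 CPM in Balb/c. Its log2 fold change was -7.65 ± 0.21 (adjusted p = 1.01e-06). Gm10709 (chr9:7751725-7752204, plus strand), annotated as a processed pseudogene of the kind that arises when a spliced mRNA is copied back into the genome, stood at 4.63, 2.64 and 2.26 CPM against 550, 570 and 501 CPM. Its log2 fold change was -7.45 ± 0.21 (adjusted p = 1.01e-06).

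Both resemble genes elsewhere in the genome almost letter for letter. The coding sequence of Rpl29 and the aligned stretch of Gm10709 are identical at 476 of 480 bases, and Rps18 and Gm10260 at 452 of 456. The last 120 coding bases before the stop codon of each gene are printed because 3′ libraries read transcripts from that end, and because a read within this stretch can be given to parent or copy only through the few bases that differ. Of the 31-base words of Rpl29, 27.05% are shared with Gm10709. A further listed gene, Gm3550, also shares part of them and was not summed here. Whether reads elsewhere in Rpl29 can be told apart was not tested. The printed stretches are the reference sequence (GRCm38, GENCODE M21 annotation), 5′ to 3′ on the transcribed strand, with bases that differ between parent and copy in capitals.
Rpl29: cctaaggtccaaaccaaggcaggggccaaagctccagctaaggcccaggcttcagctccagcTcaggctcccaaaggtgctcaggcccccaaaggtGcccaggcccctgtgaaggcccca
Gm10709: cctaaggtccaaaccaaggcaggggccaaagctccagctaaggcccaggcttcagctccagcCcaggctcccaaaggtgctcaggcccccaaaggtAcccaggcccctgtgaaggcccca
Rps18: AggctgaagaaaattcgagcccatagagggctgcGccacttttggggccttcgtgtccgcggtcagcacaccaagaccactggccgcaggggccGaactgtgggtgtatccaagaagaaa
Gm10260: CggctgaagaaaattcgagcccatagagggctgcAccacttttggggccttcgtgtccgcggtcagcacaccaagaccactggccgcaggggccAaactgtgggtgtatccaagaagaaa
The Rpl29 stretch lies at chr9:106431327-106431446 on the plus strand, in 1 exon, and that of Gm10709 at chr9:7752085-7752204, also plus. The Rps18 stretch spans an intron within chr17:33952046-33952267 on the minus strand, and that of Gm10260 lies unspliced at chr13:97760133-97760252, minus. The first pair differs at 2 of these 120 bases and the second at 3. Another pair, Rpl35 and its intronless copy Gm2000 (chr1:156366040-156366484), is identical at 368 of 369 coding bases and does not differ in its last 120.

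Rpl29 differed in the opposite direction to its copy. Rpl29, a protein of the large ribosomal subunit, stood at 807, 791 and 763 CPM in C57BL/6J and at 86.5, 107 and 129 CPM in Balb/c, a log2 fold change of 2.88 ± 0.15 (adjusted p = 5.95e-05). Summed with Gm10709, the pair stood at 790.2 ± 23.4 CPM in C57BL/6J and 647.6 ± 25.5 CPM in Balb/c (SD, n = 3 each), and the log2 fold change of the sum was 0.29 ± 0.09 (adjusted p = 0.08). Most of the Rpl29 difference was therefore matched by the opposite difference in its copy. Rps18 stood at 1904, 1984 and 1946 CPM against 1268, 1497 and 1011 CPM, and a further copy, Rps18-ps3 (chr8:107262793-107263248), at 51.7, 29.2 and 31.6 against 205, 177 and 177 CPM. The sum of Rps18, Gm10260 and Rps18-ps3 did not pass the test, at -0.22 ± 0.13 (adjusted p = 0.297). For Rpl35 with Gm2000 the copy was the higher in C57BL/6J, at 325, 223 and 277 CPM against 21.4, 19.8 and 45.1, and the sum again did not pass (0.27 ± 0.13, adjusted p = 0.203).

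A copy was also higher in Balb/c for tropomyosin 3, a filament protein of the cytoskeleton. Its intronless copy Tpm3-rs7 (chr14:113314608-113316754) stood at 10.1, 5.46 and 6.37 CPM in C57BL/6J and 87.7, 72.5 and 66.7 CPM in Balb/c, while Tpm3 itself stood at 137 to 144 CPM and 47.3 to 61.8 CPM. Their sum did not pass the test (0.21 ± 0.12, adjusted p = 0.303). The copy of Rplp0 named Gm8730 was higher in Balb/c by 1.32 ± 0.26 on the log2 scale, but not past the test without C57BL/6J replicate 2 (adjusted p = 0.072) or replicate 3 (0.0634), and its sum with Rplp0 did not pass (0.30 ± 0.18, adjusted p = 0.308). For other copies the sum still differed in the direction of the copy. Rpl23a-ps3 with Rpl23a stood at 1660.0 ± 165 CPM in C57BL/6J and 738 ± 130.3 CPM in Balb/c (log2 1.17 ± 0.15, adjusted p = 0.00289). Rnaset2b with Rnaset2a, lysosomal ribonucleases, stood at 239 ± 67.3 and 90.6 ± 12.2 CPM (log2 1.39 ± 0.21, adjusted p = 0.00531).

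**Figure D2:**
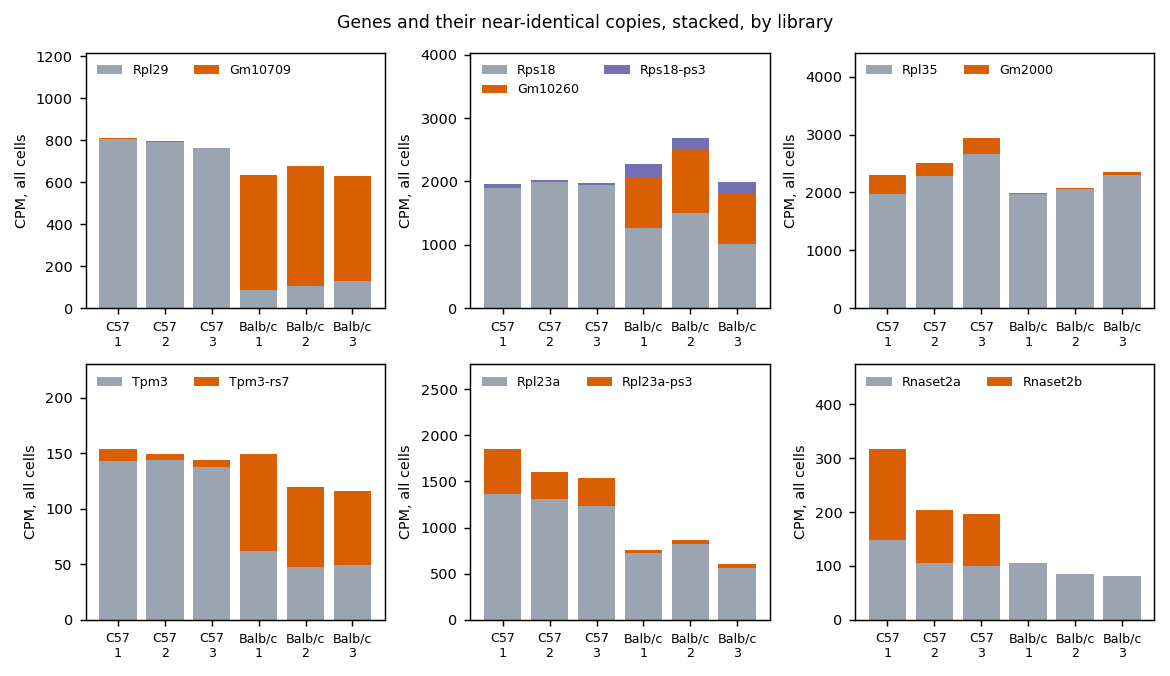
CPM over all cells for 6 genes (grey) with their near-identical copies stacked on them (orange and violet), 1 bar per library, on a linear axis from 0. The orange share is large in only one strain in each panel, while the full bar height differs much less for Rpl29, Rps18, Rpl35 and Tpm3 than for Rpl23a and Rnaset2a.

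Among the named genes at 50 CPM or more over all cells, Rnaset2b (chr17:6970634-7011299) had the greatest fold on the C57BL/6J side. It stood at 169, 99.3 and 96.0 CPM there and was listed at 0 in all 3 Balb/c libraries, which makes it at least 25.1-fold higher. It shares 62.25% of its 31-base words with Rnaset2a, which did not pass the test alone (0.37 ± 0.18, adjusted p = 0.212). Cyp4a31, a fatty acid hydroxylase of the cytochrome P450 superfamily, stood at 51.7, 46.5 and 53.8 CPM and at 0, 4.96 and 0 CPM in Balb/c. Cyp2d12, another P450, stood at 199, 160.0 and 147 CPM against 6.74, 15.6 and 27.0 CPM (log2 3.39 ± 0.32, adjusted p = 0.000735). Prcp, a lysosomal prolylcarboxypeptidase that cleaves angiotensin peptides, stood at 59.3, 67.1 and 69.7 CPM against 8.99, 6.48 and 0 CPM. The noncoding Snhg9, host of a small nucleolar RNA, stood at 70.8, 55.4 and 73.2 CPM against 8.99, 4.58 and 8.76 CPM. In each of these the strains did not overlap.

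Among the 10 named genes on the C57BL/6J side are Acta2, Tpm2 and Ren1, set side by side here after their values were seen. None of the 3 kept this order against the Balb/c female cells, given with the other libraries. Acta2, smooth muscle actin, stood at 221, 200 and 122 CPM against 19.7, 12.2 and 14.2 CPM (log2 3.58 ± 0.29, adjusted p = 0.000361), and Tpm2, muscle tropomyosin, at 78.1, 65.2 and 49.1 against 3.37, 6.86 and 8.76 CPM. Ren1, renin, the enzyme that starts the angiotensin cascade, stood at 23.1, 171 and 77.7 CPM against 1.69, 4.96 and 9.43 CPM, a log2 fold change of 4.15 ± 0.86 (adjusted p = 0.019). Ren1 was the 1 gene of the 20 that missed the threshold in a fit without 1 library, at adjusted p = 0.0621 without C57BL/6J replicate 3, 0.0539 without Balb/c replicate 1 and 0.0639 without Balb/c replicate 2. All 8 mesangial and mural markers together stood at 282 to 519 CPM in C57BL/6J and 49.0 to 71.8 CPM in Balb/c, and cells gated by them made up 1.02% to 1.52% and 0.224% to 0.446% of the libraries. Acta2 is itself 1 of these 8 markers, so neither the sum nor the gate is separate from its difference. The part of mesangial and mural cells in these 3 differences was not tested. In such sums fewer cells of a type and less RNA per cell cannot be told apart.

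On the Balb/c side, Angptl7 (chr4:148495183-148500460), a secreted angiopoietin-like protein, stood at 4.08, 6.59 and 2.67 CPM in C57BL/6J and 341, 247 and 270 CPM in Balb/c (log2 -5.97 ± 0.27, adjusted p = 3.56e-05). Cd59b and Cd59a, paired genes for a membrane inhibitor of the complement attack complex, were both higher in Balb/c. Cd59b stood at 25.0, 45.2 and 50.3 against 461, 460 and 603 CPM (log2 -3.64 ± 0.25), and Cd59a at 83.3, 110 and 105 against 420.3, 487 and 609.8 CPM (log2 -2.34 ± 0.17). C4b, complement component 4, went the same way at lower level, with 3.08 to 5.99 CPM against 21.9 to 29.6 CPM. Plau, the urokinase plasminogen activator of the tubule, stood at 10.9, 13.2 and 10.7 against 65.2, 79.3 and 60.6 CPM, and the secreted ribonuclease Rnase4 at 5.72, 4.90 and 12.1 against 58.4, 59.5 and 72.1 CPM. Erdr1 and Mid1, neighbours near the pseudoautosomal end of the sex chromosomes, were also both higher in Balb/c. Erdr1 stood at 23.9 to 44.6 CPM against 265 to 441 CPM, and Mid1, a microtubule-bound ubiquitin ligase, at 5.75 to 6.53 CPM against 117, 33.9 and 65.4 CPM. Hist1h2al, annotated as a processed pseudogene of histone H2A, was above 0 in 1 C57BL/6J library, at 3.08 CPM, and at 65.2, 104 and 127 CPM in Balb/c. It shares 79.94% of its 31-base words with Hist2h2aa1, and the sum of both was also higher in Balb/c (log2 -3.47 ± 0.30, adjusted p = 0.000606).

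Other libraries of the series show the same genes in the same strains, with differences in sex, age, chemistry, digestion or assay, so the values are set side by side without a test. The warm C57BL/6J suspensions share litter, line and experiment with the C57BL/6J libraries compared, so they are not an independent set. Gm10709 stood at 1.82 to 2.70 CPM in 3 warm-digested C57BL/6J suspensions and at 432 to 456 CPM in 3 cold-digested suspensions of 15-week-old Balb/c females made with chemistry version 3. Gm10260 stood at 2.30 to 4.16 and 321 to 351 CPM, Angptl7 at 1.54 to 4.57 and 59.0 to 82.7 CPM, and Rnaset2b at 93.7 to 129 and 0.755 to 1.25 CPM. For these 4 genes the values in either set lay on the same side as in the libraries compared. Of 63 genes called over all cells, from the rule for named genes and the parents of copies, 45 had the 3 warm C57BL/6J and 3 Balb/c female libraries apart in the same order, 11 in the opposite order and 4 overlapping, and 3 were not listed for both. The 11 were Acta2, Tpm2, Nrp2, Cd36, Jund, Cyp4a12a, Gsta2, Acaa2, Vim, Gm10076 and Gm42418, and the 4 were Ren1, Rps18-ps3, Gusb and Ptpn22. How often any tested gene keeps its order in these libraries was not computed, so the counts have no share over all genes beside them. Ren1 stood at 71.6 to 129 CPM in the Balb/c female cells and Acta2 at 199 to 351 CPM, within or above the range of the 3 C57BL/6J cold libraries, and Tpm2 at 99.3 to 201 CPM, above it. Gsta2, higher in C57BL/6J in the libraries compared, stood at 740.3 to 960.3 CPM in the warm C57BL/6J cells and 1038 to 1167 CPM in the Balb/c female cells, and Jund, higher in Balb/c in the libraries compared, at 625 to 815 against 298 to 392 CPM. The study lists Jund among the genes induced by warm dissociation. Strain and digestion cannot be told apart in its order here. Akr1c21 stood at 2504 to 3299 CPM in the warm C57BL/6J cells and at 7.35 to 11.5 CPM in the Balb/c female cells.

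Bulk RNA was made from cells left over after the dissociations, so the C57BL/6J cold bulk libraries come from the same cold suspensions as the cell libraries or their litter and are not independent animals. Bulk sequencing of cold-digested suspensions, whose reads were made and counted in another way, gave the same order for 42 of the 63 genes, the opposite order for 14 and an overlap for 7. The 14 were Tpm2, Snhg9, Gm10709, Wdr89, Ccl28, Cd36, B2m, H2-Ab1, Slco1a1, Cyp4a12a, Gsta2, Acaa2, Gm10076 and Cfb. The share over all tested genes was not computed for the bulk libraries either. Gm10709 was at 0.159 to 0.335 CPM of reads in 3 C57BL/6J male bulk libraries and at 0 to 0.0455 in 3 Balb/c female ones. Rpl29 stood at 79.1 to 85.2 against 24.7 to 26.8. Gm10260 stood at 0 to 0.244 against 30.6 to 32.3, and Rpl23a-ps3 at 0.159 to 0.503 against 0.465 to 0.955, with Rpl23a at 53.1 to 62.4 against 95.5 to 98.3. Tpm3-rs7 stood at 0.953 to 1.17 against 57.7 to 67.0, Angptl7 at 2.38 to 3.85 against 170 to 216, and Nnt, the mitochondrial transhydrogenase, at 182 to 198 against 432 to 488 CPM of reads. So the large Gm10709 level in Balb/c cells had no counterpart in the Balb/c bulk libraries, while those of Gm10260, Tpm3-rs7 and Angptl7 did, and Rpl23a with its copy was in the opposite order to the sum reported above.

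C57BL/6J mice are known to carry a deletion within Nnt (chr13:119335448-119408997), which gives a check on the labels. Nnt stood at 49.5, 47.7 and 49.5 CPM in C57BL/6J and 103, 122 and 121 CPM in Balb/c, a log2 fold change of -1.24 ± 0.11 (adjusted p = 0.000628). A 3′ tag can lie outside the deleted exons, so the transcript is not expected to vanish. Of the 9 tested genes that are known for alleles that differ among inbred strains, 3 were higher in C57BL/6J and 2 in Balb/c, against 4.5% and 1.85% of all tested genes. The hemoglobin gene Hbb-bt, 1 of the 3, lost its call in 4 of the 6 fits without 1 library (adjusted p = 0.0887 to 0.125). Apobec3, a cytidine deaminase that restricts retroviruses, stood at 41.1, 37.5 and 27.7 against 7.30, 3.81 and 0 CPM, and Ly6a, the Sca-1 surface antigen, at 742, 649 and 709 against 365, 327 and 297 CPM. Wdfy1, an endosomal adaptor, stood at 22.1 ± 1.95 against 95.8 ± 8.40 CPM (SD, n = 3 each; log2 -2.11 ± 0.13, adjusted p = 0.000154). Glo1, a glyoxalase that is duplicated in some strains, fell just short of the fold at -0.98 ± 0.11, with 164 to 183 CPM against 315 to 361 CPM. Ahr, the aryl hydrocarbon receptor, did not reach the call, at -0.40 ± 0.32 (adjusted p = 0.447).

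Over all cells, the called Ly6 and MHC genes were higher in C57BL/6J. Within types, H2-T23 of the class I list was called higher in Balb/c in podocyte-like cells (-1.38 ± 0.25, adjusted p = 0.00247). As above, 4.5% of all tested genes were higher in C57BL/6J. Of 5 Ly6 genes tested, 3 were higher in C57BL/6J, all of them also in each fit without 1 library. Ly6e stood at 537, 550 and 556 CPM against 114, 97.6 and 84.2 CPM (log2 2.47 ± 0.13, adjusted p = 5.95e-05), and Ly6d at 66.4 to 102 against 14.2 to 32.0 CPM. Of 9 MHC class II genes, which present antigen on macrophages, dendritic and B cells, 6 were higher in C57BL/6J, with a median log2 fold change of 1.35 over the 9 (1.31 with genes at 0 in Balb/c at their lower bound) against 0.05 over all tested genes (0.04 with bounds). H2-Ab1 stood at 1565, 1459 and 1441 CPM against 564, 446 and 189 CPM. H2-Eb1 stood at 935, 873 and 896 against 524, 342 and 189 CPM, and missed the threshold without any one C57BL/6J library (adjusted p = 0.0731 to 0.0776) and without Balb/c replicate 2 (0.0647). H2-Ab1 and H2-DMb1 were the 2 of the 6 called in every fit without 1 library. The 6 macrophage markers moved with them, at 790.0 to 990 CPM in C57BL/6J and 179 to 581 CPM in Balb/c. The 5 listed monocyte and dendritic markers stood at 67.6 to 78.2 against 9.54 to 32.3 CPM, and the 5 listed B cell markers at 146 to 253 against 43.3 to 180.1 CPM. The part of these cells in the class II differences over all cells was not tested. Within macrophage-like cells H2-Ab1 did not pass the test (0.87 ± 0.33, adjusted p = 0.183), nor did H2-Eb1 (0.35 ± 0.32, adjusted p = 0.642) or the invariant chain Cd74 (-0.23 ± 0.40, adjusted p = 0.841). H2-Ab1 was called higher in C57BL/6J in 3 of the 7 types where it was tested, proximal tubule-like (1.64 ± 0.26), distal convoluted and connecting tubule-like (2.00 ± 0.45) and endothelial-like cells (1.12 ± 0.30), and H2-DMb1 in proximal tubule-like cells (1.87 ± 0.37) and podocyte-like cells. Whether RNA released from macrophages, dendritic or B cells, whose markers were lower in Balb/c, reaches these types was not tested. Of 18 class I and antigen processing genes 3 were called higher in C57BL/6J, among them B2m, the shared light chain, at 755 to 920 against 241 to 426 CPM. B2m and H2-T22 kept their call in every fit without 1 library, and Tap1, the third, did not. In the bulk libraries given above, B2m and H2-Ab1 were in the opposite order, while H2-DMb1, H2-Eb1, Ly6a, Ly6d and Ly6e kept theirs. Between the warm C57BL/6J and the Balb/c female cells all of these genes kept their order. Of 28 interferon-stimulated genes 3 were called, against the 4.5% over all genes, and every one of the 3 lost its call in at least 1 fit without a library.

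Among proximal tubule functions, 8 of 35 tested transporters were higher in C57BL/6J, against 4.5% of all tested genes, with a median log2 fold change of 0.55 over the list (0.52 with bounds), and 5 of the 8 were so in each fit without 1 library. Slc22a8, the organic anion transporter OAT3, stood at 212, 202 and 173 CPM against 54.5, 84.7 and 90.3 CPM (log2 1.35 ± 0.18, adjusted p = 0.0035). Abcc2, an efflux pump for conjugates, stood at 83.6, 71.8 and 73.0 against 20.8, 16.0 and 23.6 CPM (log2 1.95 ± 0.16). Slc2a5, the fructose transporter, stood at 19.9 to 26.4 against 6.74 to 8.01 CPM. The 9 gate markers of this segment, which are largely transporters too, stood at 6104 to 6913 CPM in sum in C57BL/6J and 5159 to 6165 CPM in Balb/c.

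Of 22 P450 genes, which detoxify drugs and oxidise lipids, 5 were higher in C57BL/6J and 1 in Balb/c, against 4.5% and 1.85% of all tested genes, all 6 also in every fit without 1 library. The exception, Cyp4a12a, an androgen-dependent hydroxylase, stood at 49.8, 43.9 and 64.7 CPM against 246, 252 and 345 CPM (log2 -2.41 ± 0.19, adjusted p = 0.000361), and its sum with the near-identical Cyp4a12b still differed (-2.16 ± 0.19). Of 24 conjugation enzymes, 2 were higher in either strain. Gsta2, a glutathione transferase, stood at 604, 551 and 725 CPM against 102, 87.7 and 60.0 CPM (log2 2.90 ± 0.20), while its relative Gsta1, which shares part of its sequence, stood at 3.96 to 6.80 against 27.0 to 48.3 CPM (log2 -2.83 ± 0.27). Of 10 androgen-responsive kidney genes, 3 were higher in Balb/c (1.85% of all tested genes were), Cyp4a12a, the organic anion carrier Slco1a1 and the lysosomal glucuronidase Gusb. Slco1a1 stood at 141, 84.6 and 130.5 against 344, 297 and 411 CPM. Kap, the kidney androgen-regulated protein, did not pass the test (-0.21 ± 0.20, adjusted p = 0.538).

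Of 25 fatty acid oxidation genes 3 were higher in C57BL/6J, against 4.5% of all tested genes, among them the peroxisomal thiolase Acaa1b at 265 to 306 against 113 to 130.0 CPM. Acaa1b and Vnn1 kept their call in every fit without 1 library, and Acaa2, the third, did not. Of 79 cytosolic ribosomal protein genes, 47 passed the adjusted p on the C57BL/6J side and 4 also passed the fold, Rpl29, Rpl6l, Rps14 and Rps28. Over all tested genes, 986 (8.78%) passed that adjusted p on the C57BL/6J side and 4.5% also passed the fold, and the median log2 fold change was 0.52 over the list against 0.05 over all genes. Rps28 stood at 2259, 1924 and 2077 against 752, 700.1 and 810 CPM. Of 85 nuclear-encoded respiratory chain genes 2 were called, a share below that over all genes, and neither kept its call in every fit without 1 library. The other lists had few calls each, against 4.5% and 1.85% over all tested genes. For them, 2 of 21 glycolysis and gluconeogenesis genes, 1 of 9 tubule injury markers, 1 of 6 immunoglobulin genes and 1 of 7 complement genes were higher in C57BL/6J, and 2 of 7 complement genes were higher in Balb/c. The gluconeogenesis gene Pcx and the 2 complement genes higher in Balb/c kept their call in every fit without 1 library. The others of these did not. Of 8 nuclear and ribosomal-DNA-like noncoding RNAs, Gm26917 and Gm42418 were higher in C57BL/6J and Gm10076 in Balb/c, and Gm42418 alone of these kept its call in every fit without 1 library. Gm10076 shares 82.2% of its 31-base words with the ribosomal protein gene Rpl41, and their sum did not pass (-0.13 ± 0.16, adjusted p = 0.642). The nuclear RNAs Malat1 and Neat1 did not pass either, at 0.54 ± 0.22 (adjusted p = 0.134) and -0.29 ± 0.20 (adjusted p = 0.388). None of 17 clock, 7 glucocorticoid-induced, 10 metallothionein and Nrf2 target or 4 sex-linked genes was called in edgeR. The study picked its stress-response genes from those induced by warm dissociation. Of 14 tested here, Hspa8 and Hspb1 were higher in C57BL/6J and Hspa1b and Jund in Balb/c. Jund alone of the 4 kept its call in every fit without 1 library. Hspa1b lost its call in each of the 6 such fits (adjusted p = 0.051 to 0.108). Jund, a subunit of the AP-1 transcription factor, stood at 217, 297 and 241 CPM against 722, 685 and 662 CPM (log2 -1.45 ± 0.13, adjusted p = 0.000665). The chaperone gene Hspa8 stood at 1791, 1471 and 2228 against 854, 770 and 913 CPM, and its fold fell to 0.95 without C57BL/6J replicate 3. Hemoglobin genes, carried by red cells, were higher in C57BL/6J for 4 of 5, and none of the 4 kept its call in every fit without 1 library. C57BL/6J replicate 3 was the highest library, with Hba-a1 at 4905 CPM against 1541 and 2210 in the other C57BL/6J libraries and 741 to 1216 in Balb/c. Without it the Hba-a1 fold change was 0.86 (adjusted p = 0.0905), and the call was also lost without C57BL/6J replicate 2 or any one Balb/c library (adjusted p = 0.0693 to 0.123).

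Cells were then assigned to types by at least 2 distinct marker genes. A cell with 2 or more markers of another type than proximal tubule went to the type with the most. That held however many proximal tubule markers the cell had, and ties were left out. Only a cell with fewer than 2 markers of every other type could count as proximal tubule. By this rule, 8 types had at least 10 cells in every library. They are called by the marker set, as proximal tubule-like cells and so on. Across these types, 148 genes were called higher in C57BL/6J and 94 higher in Balb/c in 2 or more types, and for 7 and 6 of them that was so in all 8. The distal convoluted and connecting tubule gate had the most calls of the 8, where 422 of 4781 genes were higher in C57BL/6J (8.83%) and 264 in Balb/c (5.52%). The 9 proximal tubule markers stood in that gate at 4926 to 7428 CPM in C57BL/6J and 1517 to 1952 CPM in Balb/c, and the part of those cells in the calls was not tested. Without that gate the counts across types were 68 and 48. Slc34a1, itself a proximal tubule marker, was called higher in C57BL/6J in 5 of 8 types. The 9 markers stood at 901 to 1063 against 263 to 740 CPM in intercalated-like cells. In principal-like cells they stood at 880 to 4619 against 454 to 713 CPM. In ascending loop of Henle-, podocyte-, endothelial- and macrophage-like cells the strains overlapped. The part of proximal tubule RNA in the counts across types was not tested.

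**Figure D3:**
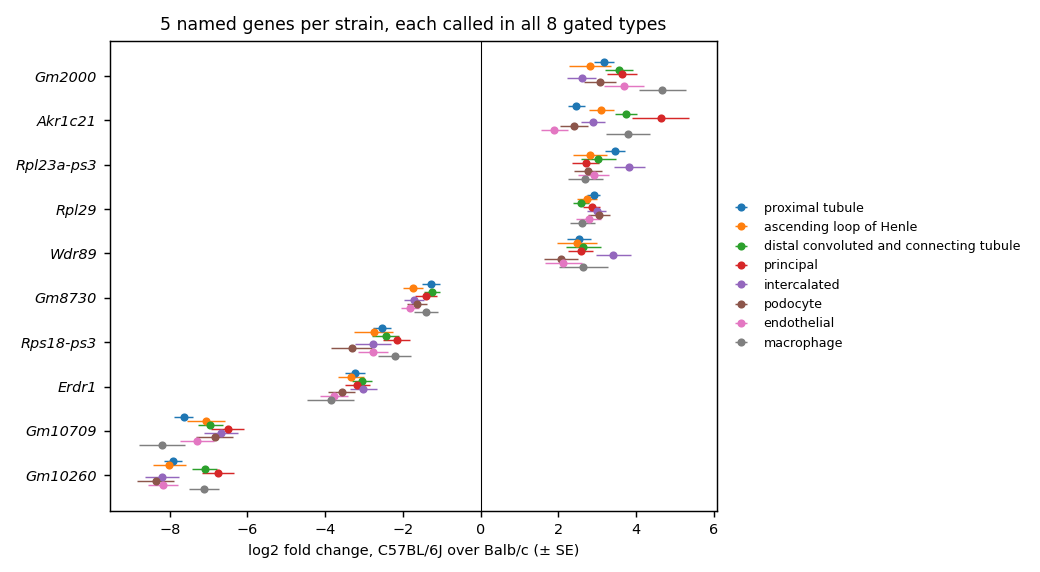
Log2 fold changes (C57BL/6J over Balb/c, points, with SE as bars) in each of the 8 gated types for the 5 named genes per strain. Each gene lies on 1 side of 0 in all 8 types, with Gm10260 between -8.36 and -6.75 and Rpl29 between 2.59 and 3.05.

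Among the genes called in every type, most of those named were copies or their parents. On the Balb/c side they were Gm10260, Gm10709, Erdr1, Rps18-ps3, Gm8730 and Jund. On the C57BL/6J side the 5 named were Gm2000, Rpl23a-ps3, Rpl29, Akr1c21 and Wdr89. Gm10260 ranged from -6.75 ± 0.41 in principal-like to -8.36 ± 0.47 in podocyte-like cells, and Rpl29 from 2.59 in distal convoluted and connecting tubule-like to 3.05 in podocyte-like cells. Jund ranged from -1.11 in macrophage-like to -1.76 in distal convoluted and connecting tubule-like cells. Akr1c21 (chr13:4574075-4586541), an aldo-keto reductase that acts on steroids, ranged from 1.90 in endothelial-like to 4.63 in principal-like cells. Over all cells it stood at 2597, 2071 and 1449 CPM against 302, 382 and 276 CPM (log2 2.67 ± 0.23, adjusted p = 0.000496). Whether RNA released from proximal tubule cells into the droplets carries Akr1c21 to the other types was not tested.

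In proximal tubule-like cells, 924 to 2542 per library, 264 of 8489 genes were higher in C57BL/6J (3.11%) and 185 in Balb/c (2.18%). When all cells were clustered together, without correction for strain or experiment, proximal tubule-like cells of the strains lay largely in different clusters. One of these held 317 to 326 cells of each C57BL/6J library and 1 to 14 of each Balb/c library, while another held 3 to 11 and 262 to 332. Values in the gated class therefore set cells of different clusters side by side. Gene copies and depth can enter such clusters, and their part was not tested. Apob (chr12:7977648-8016835), the apolipoprotein of chylomicrons and low-density lipoprotein, stood at 64.7, 91.3 and 85.8 CPM in these C57BL/6J cells and was listed at 0 in Balb/c. Over all cells it was at least 10.3-fold higher. Pttg1, securin, which holds sister chromatids together until anaphase, stood at 107, 109 and 99.7 CPM against 16.5, 8.51 and 9.74 CPM (log2 3.22 ± 0.25). Angptl7 stood at 5.15, 8.19 and 2.04 CPM against 717, 482 and 473 CPM, higher than over all cells in Balb/c. The epithelial chemokine Ccl28 stood at 0, 0 and 2.45 CPM against 66.0, 41.7 and 74.7 CPM.

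In ascending loop of Henle-like cells, Atp4a, the catalytic subunit of the gastric-type proton-potassium pump, stood at 202, 164 and 132 CPM in C57BL/6J and was listed at 0 in Balb/c, and over all cells it was at least 4.51-fold higher. In principal-like cells Ly6e stood at 1083, 1328 and 2137 CPM against 62.6, 45.3 and 66.9 CPM (log2 4.73 ± 0.32). Proximal tubule markers in those principal-like cells stood at 4619 CPM in C57BL/6J replicate 1 and at 454 to 1130 CPM in the other 5 libraries. In intercalated-like cells, Dkk3, a secreted glycoprotein of the Dickkopf family, stood at 0 in all 3 C57BL/6J libraries and at 238, 233 and 180 CPM in Balb/c. The small membrane protein Smim6 stood there at 155, 160 and 145 CPM against 0, 5.67 and 0 CPM. In podocyte-like cells H2-DMb1, part of the class II peptide loader, stood at 166, 276 and 208 CPM against 14.6, 0 and 0 CPM (log2 5.54 ± 0.66).

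In endothelial-like cells Nrp2, a co-receptor for vascular growth factors and semaphorins, stood at 156, 136 and 126 CPM and was listed at 0 in Balb/c, and over all cells it was at least 1.57-fold higher. In macrophage-like cells Slc15a3, a lysosomal peptide and histidine transporter, stood at 140, 184 and 312 CPM against 0, and over all cells at least 2.44-fold higher. The Balb/c macrophage-like cells were few, 90, 87 and 33, and the endothelial-like ones 206, 123 and 50, so these 2 zeros rest on little depth. Over all cells the call for Nrp2 was lost without any one C57BL/6J library (adjusted p = 0.0511 to 0.0839) and that for Slc15a3 without C57BL/6J replicate 3 (0.0564). The remaining types had 24 to 86 calls on the C57BL/6J side and 22 to 83 on the Balb/c side.

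Whether a strain difference was particular to the proximal tubule was tested as an interaction, with proximal tubule-like and all other gated cells of each library in 1 fit. The test reads the class as a whole, whose cells lay largely in clusters held mostly by one strain, as given above. The other cells are 1 sum over types whose shares were not equal in the strains. Principal-like cells, for example, made up a mean of 2.35% in C57BL/6J and 5.68% in Balb/c. The part of that make-up in the calls was not tested. On simulated counts the test recovered 40.5% of genes changed by 2 on the log2 scale, with 4.71% false calls. Those counts had capped spread, no strain difference in the make-up of the classes and no zeros from the cell filter. Rates in the data can therefore differ. Of 10726 genes, 240 (2.24%) had a higher C57BL/6J over Balb/c ratio in proximal tubule-like cells than in the others and 396 (3.69%) a lower one. The split between these directions depended on the processing. It was 163 and 495 with another scaling, 153 and 110 with clusters in place of gates, and 283 and 169 without the distal convoluted and connecting tubule gate. The 10 named genes kept an adjusted p under 0.05 in all 13 alternative fits of the interaction.

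**Figure D4:**
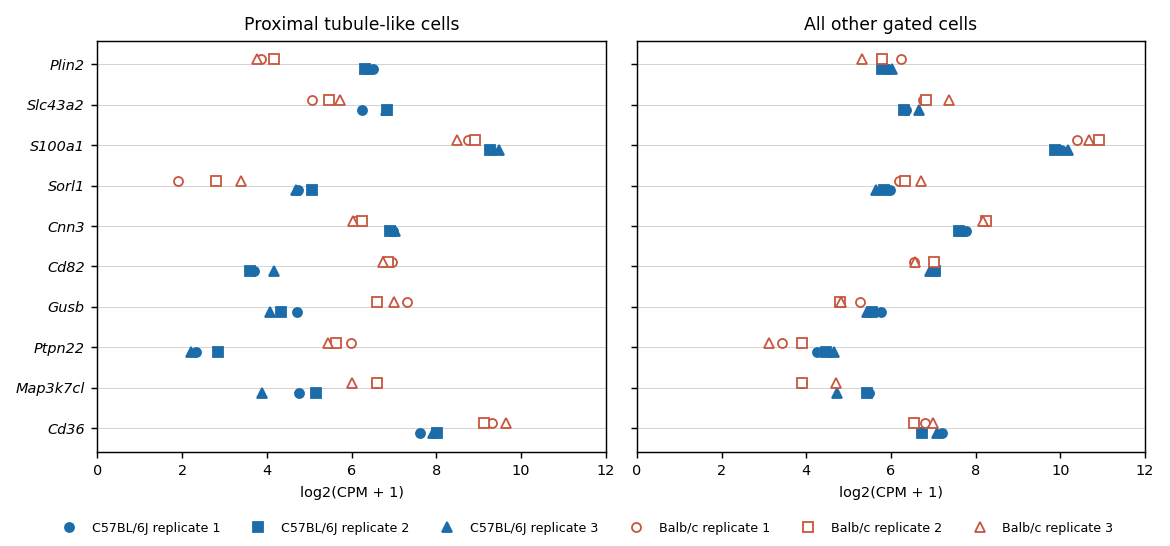
Levels of the 10 named interaction genes as log2(CPM + 1) in proximal tubule-like cells (left) and in all other gated cells (right), 1 point per library (filled blue, C57BL/6J; open red, Balb/c). The strains are apart on the left for every gene, with Cd82 at 11.1 to 17.1 CPM in C57BL/6J and 106 to 122 CPM in Balb/c, and close together or in the opposite order on the right.

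Cd82, a tetraspanin, showed the difference within the proximal tubule most plainly. It stood at 12.0, 11.1 and 17.1 CPM in C57BL/6J proximal tubule-like cells and 122, 115 and 106 CPM in Balb/c, but at 131, 130 and 120 CPM and 91.5, 127 and 94.5 CPM in the other cells. The interaction was -3.27 ± 0.23 on the log2 scale. Cd36, the fatty acid and scavenger receptor, stood at 196, 259 and 243 CPM against 631, 556 and 800.0 CPM in proximal tubule-like cells, while the strains overlapped in the other cells at 105 to 146 and 92.1 to 125 CPM. Gusb stood at 15.8 to 25.1 against 95.5 to 156 CPM in proximal tubule-like cells and at 41.9 to 53.3 against 27.0 to 37.4 CPM in the others, and Ptpn22, a phosphatase known from lymphocytes, at a mean of 4.61 against 51.1 CPM and of 21.01 against 10.5 CPM. In the other direction, Plin2, which coats lipid droplets, stood at 89.7, 79.3 and 82.4 CPM against 13.6, 16.9 and 12.6 CPM in proximal tubule-like cells, and the strains overlapped in the others at 54.1 to 64.3 and 38.6 to 74.9 CPM. By single type, Plin2 was called higher in C57BL/6J in 2 of the 4 types where it was tested, proximal tubule-like cells among them. Whether RNA of proximal tubule cells takes part in the call outside that gate was not tested. Sorl1, a sorting receptor, stood at 24.8 to 32.5 against 2.72 to 9.49 CPM and at 49.0 to 61.7 against 72.1 to 104 CPM.

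Of the 4 tubule types beyond the proximal tubule, 3 made up a smaller share of the C57BL/6J libraries. Ascending loop of Henle-like cells were 2.55%, 3.18% and 3.16% of cells in C57BL/6J and 4.42%, 5.08% and 6.32% in Balb/c, a log2 difference of -0.83 ± 0.20. Principal-like cells were 2.76%, 2.84% and 1.44% against 5.84%, 5.28% and 5.93% (-1.28 ± 0.29), and intercalated-like cells 1.70%, 2.50% and 2.92% against 3.85%, 5.24% and 5.81% (-1.06 ± 0.27). Each of the 3 had an adjusted p of 0.0206 in edgeR, and the exact two-sided permutation p was 0.1, the smallest that 3 against 3 allow. None of the 3 passed with TMM factors on the cell numbers, where their adjusted p was 0.0602 to 0.0898, or when C57BL/6J replicate 1, C57BL/6J replicate 2 or Balb/c replicate 2 was left out. Proximal tubule-like cells were 43.1% to 48.2% against 37.5% to 41.5% and did not pass (0.22 ± 0.14, adjusted p = 0.27). Macrophage-like cells were 4.63% to 5.27% in C57BL/6J and 3.65%, 2.80% and 0.923% in Balb/c (1.01 ± 0.47, adjusted p = 0.152), but passed with clusters in place of gates (0.96, adjusted p = 0.0396). Between 14.96% and 22.98% of cells in a library met no gate. With gates set on cells thinned to 300 UMIs, principal-like and intercalated-like cells still passed and ascending loop of Henle-like cells did not (adjusted p = 0.105). Distal convoluted and connecting tubule-like cells were 7.69% to 8.91% of cells in C57BL/6J and 6.24% to 9.26% in Balb/c (0.06 ± 0.20, adjusted p = 0.758). Their share was lower in C57BL/6J with thinned gates (-0.79, adjusted p = 0.0474) and with clusters in place of gates (-0.60, adjusted p = 0.0396).

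**Figure D5:**
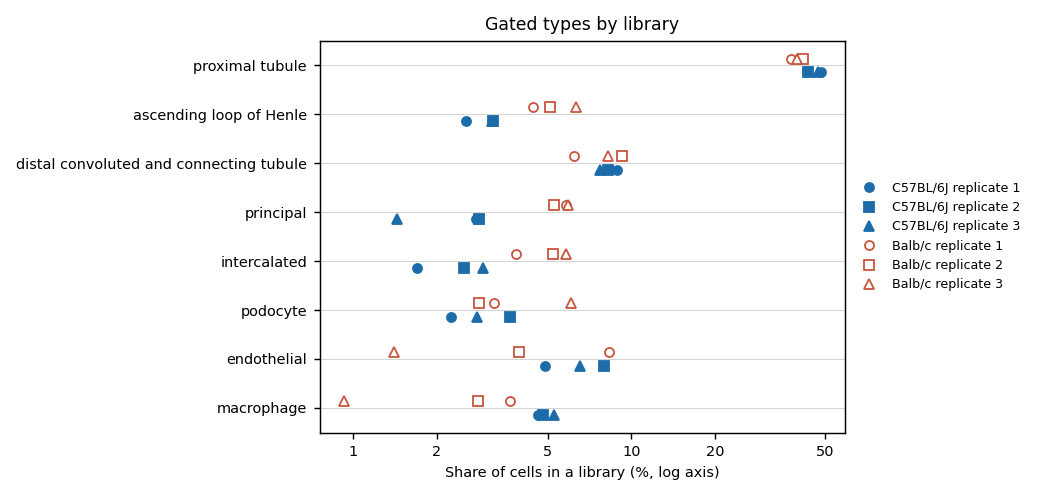
Share of all cells of a library in each gated type, in percent on a log axis, 1 point per library (filled blue, C57BL/6J; open red, Balb/c). The 3 C57BL/6J libraries lie below the 3 Balb/c libraries for ascending loop of Henle-, principal- and intercalated-like cells, and Balb/c replicate 3 is lowest for endothelial- and macrophage-like cells.

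Some genes were listed for only one strain, 429 for C57BL/6J, of which 13 are mitochondrial, and 3561 for Balb/c, and were in no test. A gene can be missing from a list because of the filter on cells. The Balb/c libraries held 1644357, 2573720 and 1362810 UMIs over all listed genes, against 1643297, 2571602 and 1362075 over the shared genes. The 3561 genes thus held few UMIs in these libraries, and a listing is not detection in them. Npy, neuropeptide Y (chr6:49822710-49829507), was the most abundant of those listed for Balb/c alone, at 240, 324 and 173 CPM over all cells. In principal-like cells it reached 1110, 2979 and 1777 CPM, and those cells held 159 of 394, 605 of 832 and 152 of 235 of the Npy UMIs of their libraries. It stood at 127 to 184 CPM in the Balb/c female cells and was at 0 in the 3 C57BL/6J bulk libraries, against 22.1 to 25.9 CPM of reads in the Balb/c female bulk libraries. Akr1c18, a hydroxysteroid dehydrogenase of the family of Akr1c21, stood at 85.8, 108 and 85.9 CPM and lay mostly in proximal tubule-like cells, at 122 to 157 CPM. Of those listed for C57BL/6J alone, Myl7, the atrial myosin light chain, reached 764, 756 and 417 CPM in podocyte-like cells, and 96 of its 99, 229 of 234 and 108 of 111 UMIs lay there. Gm5900, listed for Balb/c alone at 68.1 to 71.8 CPM, shares 82.03% of its 31-base words with Lamtor3 and is a further copy whose reads may be split.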

How the data were processed

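Per the labels and the study's methods, reads of the 10x libraries were aligned to mm10 (GRCm38) and counted with Cell Ranger 2.1.1, and cells were kept at 200 to 3000 genes and under 50% mitochondrial UMIs. The deposited values are UMI counts per gene and cell, not normalized, and the authors' methods keep genes seen in at least 10 cells, though 25 to 83 genes per library are left with UMIs in 1 to 8 cells. The bulk files hold the authors' read counts per gene. Here UMIs were summed per library over genes listed in all 6 files, within all cells and within types gated by 2 or more distinct markers, and no doublet caller was run. Sums were tested with edgeR 4.0.16 (R 4.3.3; filterByExpr, TMM, quasi-likelihood, Benjamini-Hochberg), with DESeq2 1.42.0 as an alternative. Cell numbers were tested the same way with cells per library as library size. CPM are TMM-scaled, and plain for marker sums, one-strain genes and other libraries. The p-values measure the spread between 3 libraries of littermates per strain, and totals of 1362075 to 5551899 UMIs set the precision. Near-identical copies were found by shared 31-base words in GENCODE M21 transcripts and summed where at least 50% were shared. On simulated counts for all cells (11225 genes) the test recovered 73% of genes changed by 1.5 and 92% of those changed by 3 on the log2 scale, with 4.07% false calls. These simulated counts held no zeros from the cell filter, so rates in the data can differ. Named genes follow fixed ranks of fold, p or CPM, from all cells, types, the interaction and 23 lists, while called list members beyond those ranks and copy parents were picked after their values were seen. Members and lists were chosen with earlier results of these data known. Mitochondrial genes, not in the Balb/c files used, were not compared.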

Additional observations from a re-analysis of the deposited data

Results flagged for a closer look

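The 10 genes named here had the smallest p in the interaction test, among the 240 and 396 genes that passed it in either direction. Their strain difference in proximal tubule-like cells was not the same in all other gated cells. The text above gives the levels of 6 of them. The log2 differences of the 2 strain differences were -3.27 for Cd82, -3.19 for Gusb, -4.30 for Ptpn22, -2.91 for Map3k7cl and -1.66 for Cd36 on the side that is lower in C57BL/6J proximal tubule-like cells. They were 2.47 for Plin2, 1.82 for Slc43a2, 1.33 for S100a1, 2.89 for Sorl1 and 1.45 for Cnn3 on the other side.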

How the results depend on the processing

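No paired analysis was possible because the labels tie no C57BL/6J kidney to a Balb/c kidney, and the replicate numbers only name libraries. Apart from the sums of copies, no called gene among the 99 named ones turned its direction in any alternative, and 33 of them lost the call in at least 1. The sums with Gm10709, Gm8730 and Tpm3-rs7, given above, lay on the other side of 0 from these copies and did not pass. Those with Gm10260 and Gm2000 did not pass either. Sorl1, not called over all cells, turned to 0.025 with 0 set to 9 UMIs and ran from -0.14 to 0.077 without 1 library. Without 1 library the counts ran from 221 to 1130 and 158 to 194 genes over all cells (C57BL/6J first), 235 to 364 and 159 to 210 in proximal tubule-like cells, 109 to 182 and 55 to 92 in 2 or more types, 292 to 608 in the interaction (292 without Balb/c replicate 2) and 0 to 3 types by share. With the adjusted p alone they were 986 and 608, 533 and 377, and 319 and 164. Thinning to the smallest library gave 299 over all cells for C57BL/6J, and 60 and 45 across types. With no low-count filter the C57BL/6J counts were 445 in proximal tubule-like cells and 336 across types. DESeq2 gave 50 across types for Balb/c, leaving out the top 5% of cells by UMIs 58, 1 more marker 80 and 52, Leiden clusters 90 for C57BL/6J, and dropping the distal convoluted and connecting tubule gate 68 and 48. Leiden clusters gave 263 interaction genes and 5 types by share (macrophage-like and distal convoluted and connecting tubule-like cells added), and TMM factors 0 types. Among genes above 0 in every library 240 were higher in C57BL/6J. Setting 0 to 9 UMIs gave 683 and 1264 for Balb/c over all and proximal tubule-like cells, by construction, since the same fill is a higher CPM in a smaller library. Genes per cell differed by -4.00 after thinning to 300 UMIs, by -7.33 at 500 UMIs and by -31.3 at 1000 UMIs, where Balb/c replicate 3 kept 22 cells. Without thinning they differed by 199.5. Alternatives on zeros, copies, thinned gates and the distal gate, and the 300 UMIs per cell, were chosen after seeing the data. The causes of these changes were not tested where none is given.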
